A study of Mus musculus with 9 samples.

Results

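Tight junctions are the apical seals between neighbouring epithelial cells. Claudins form the strands and set which ions pass between the cells, while occludin (Ocln) and tricellulin (Marveld2) are 4-pass proteins of the MARVEL family in the same strands, with tricellulin concentrated where 3 cells meet. Inside the membrane the scaffold ZO-1 (Tjp1) ties the strands to actin, and the immunoglobulin-like molecule JAM-A (F11r) sits beside them. In the mammary gland these seals separate milk from tissue fluid during lactation.

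The genes examined were Cldn1, Cldn3, Cldn4, Cldn7, Ocln, Marveld2, Tjp1, F11r and Mal2. Mal2 encodes a MARVEL protein of apical membrane traffic rather than a strand protein, so that it is a tight junction gene only by its place in the list. Each of the 9 had exactly 1 probeset annotated to its symbol alone, among 19937 genes with such a probeset, and all 9 had a mean log2 level of at least 4, under which signal and background are hard to separate. Transcript levels were measured in HC11 cells, a mouse mammary epithelial line from mid-pregnancy BALB/c mice. HC11-mutB1 cells expressed RFP-tagged Mkl1 with a mutated SRF-interaction site (alanine substitutions in the B1 domain), HC11-ΔSAP cells expressed Mkl1-RFP lacking the SAP domain, and HC11-FL control cells expressed full length Mkl1-RFP. Mkl1 (Mrtfa) is a cofactor of serum response factor (SRF), and the comparisons ask which transcripts depend on its SRF contact and which on its potential DNA-binding SAP domain. All strains were starved for 48 h in 0.03% FCS without EGF, and each was hybridised to 3 arrays, 9 in all.

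Each construct was represented by 1 stably transfected strain sorted for RFP, and cells with empty vector were not analysed here. All groups therefore carry an Mkl1 construct, the 3 arrays of a strain do not hold the spread between independently made strains, and p-values measure only the spread between these arrays. In RNA of whole cultures, fewer cells with a transcript and less transcript per cell cannot be told apart. Arrays of the same strain correlated at 0.992 to 0.995 and arrays of different strains at 0.972 to 0.979 over 20286 probesets with a mean of at least 4. The Mrtfa probeset, which does not separate construct from endogenous transcript, had a mean log2 level of 9.83 in HC11-mutB1, 9.47 in HC11-ΔSAP and 9.95 in HC11-FL cells. It passed the test as lower in HC11-ΔSAP compared with HC11-FL cells (1.39-fold, limma adjusted p = 0.00177). The Mrtfa differences between HC11-mutB1 and HC11-FL and between HC11-ΔSAP and HC11-mutB1 cells did not pass (adjusted p = 0.313 and 0.0111). At the protein level, the paper states that the strains were sorted for similar Mkl1-RFP and reports about equal Mkl1 by Western blot. Mrtfb and Srf did not pass the test in any comparison. Of 8 mammary epithelial markers, 7 had a mean of at least 4, with Krt19 the exception at 3.39. The basal keratin Krt5 was 2.23-fold higher in HC11-mutB1 and 3.73-fold lower in HC11-ΔSAP cells relative to HC11-FL. The luminal keratin Krt18 was 2.56-fold lower in HC11-ΔSAP cells. At any fold in HC11-mutB1 cells, Krt8 (-0.72) and Krt18 (-0.65) passed the test as lower, and Krt5, Krt14 (0.59) and Epcam as higher. In HC11-ΔSAP cells Krt5, Krt7, Krt8, Krt14 and Krt18 passed as lower, and Epcam and Cdh1 as higher. Over all genes 10.6% passed as lower and 15.7% as higher in HC11-mutB1, and 12% and 16% in HC11-ΔSAP cells. The summed linear signal of the 8 mammary epithelial markers was 9585 to 9890 on HC11-mutB1, 7176 to 7272 on HC11-ΔSAP and 8077 to 8369 on HC11-FL arrays. Of 6 endothelial markers, Pecam1, Cdh5, Tek, Kdr and Emcn lay at 2.91 to 3.62 and Cldn5 at 4.87. Of 5 measured leukocyte markers, Ptprc and Itgam lay at 3.49 and 2.96, Csf1r and Cd3e at 4.73 and 4.70 and Cd68 at 7.73. Cd68 passed the test as lower in HC11-mutB1 cells (-0.34) and as higher in HC11-ΔSAP cells (0.45), while Ptprc, Itgam, Cd3e and Csf1r passed in no comparison. The summed signal of the leukocyte list was 233.8 to 239.3 on HC11-mutB1, 349.4 to 354.9 on HC11-ΔSAP and 277.2 to 287.6 on HC11-FL arrays. Cd68 had the highest level in this list, so the sum mainly follows that gene. The summed signal of 6 fibroblast markers was 353.2 to 385.6, 419.1 to 430.1 and 417.8 to 431.3 on the arrays of HC11-mutB1, HC11-ΔSAP and HC11-FL cells. Lum was at background. In HC11-ΔSAP compared with HC11-FL cells Dcn passed as higher (3.51-fold) and Pdgfra and Pdgfrb as lower (-0.42 and -0.38), and in HC11-mutB1 cells Pdgfra passed as higher (0.51) and Dcn and Pdgfrb as lower (-0.48 and -0.87). The part of these markers in the results was not tested.

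The promoters of Cldn4, Cldn3, Cldn7, Ocln and Marveld2 are printed because the transcripts of Cldn4, Cldn3, Cldn7 and Ocln were lower in HC11-mutB1 cells and that of Marveld2, the neighbour of Ocln, was not. They are RefSeq sequences of the build GRCm38.p6, 250 bases before to 50 bases after the annotated start, written 5′ to 3′ on the gene's strand. The windows are chr5:134946885-134947184 on the minus strand for Cldn4, chr5:134985964-134986263 on the plus strand for Cldn3, chr11:69965171-69965470 on the plus strand for Cldn7, chr13:100552669-100552968 on the minus strand for Ocln and chr13:100616922-100617221 on the minus strand for Marveld2. Capitals mark matches to the motifs searched.
Cldn4: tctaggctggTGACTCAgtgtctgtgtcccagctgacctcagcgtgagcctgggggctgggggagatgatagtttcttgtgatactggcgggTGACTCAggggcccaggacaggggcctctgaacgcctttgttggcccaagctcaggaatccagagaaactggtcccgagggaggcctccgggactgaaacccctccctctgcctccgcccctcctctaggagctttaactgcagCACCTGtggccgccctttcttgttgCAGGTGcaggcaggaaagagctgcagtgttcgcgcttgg
Cldn3: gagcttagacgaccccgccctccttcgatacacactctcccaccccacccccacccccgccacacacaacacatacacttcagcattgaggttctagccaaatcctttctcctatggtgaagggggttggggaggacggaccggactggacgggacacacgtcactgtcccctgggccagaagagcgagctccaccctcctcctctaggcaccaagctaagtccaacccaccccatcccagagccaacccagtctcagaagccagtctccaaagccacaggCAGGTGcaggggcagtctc
Cldn7: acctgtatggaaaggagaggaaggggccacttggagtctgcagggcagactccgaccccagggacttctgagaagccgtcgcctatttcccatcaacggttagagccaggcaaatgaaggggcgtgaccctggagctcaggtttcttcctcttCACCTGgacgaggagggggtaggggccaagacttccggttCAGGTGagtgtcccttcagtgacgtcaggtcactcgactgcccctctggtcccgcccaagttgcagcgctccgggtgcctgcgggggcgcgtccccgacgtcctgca
Ocln: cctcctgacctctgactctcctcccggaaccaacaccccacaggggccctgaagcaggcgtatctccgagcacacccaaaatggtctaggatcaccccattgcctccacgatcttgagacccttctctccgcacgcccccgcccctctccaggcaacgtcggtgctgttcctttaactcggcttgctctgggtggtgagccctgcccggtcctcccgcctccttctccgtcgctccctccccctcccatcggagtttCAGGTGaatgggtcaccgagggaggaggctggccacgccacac
Marveld2: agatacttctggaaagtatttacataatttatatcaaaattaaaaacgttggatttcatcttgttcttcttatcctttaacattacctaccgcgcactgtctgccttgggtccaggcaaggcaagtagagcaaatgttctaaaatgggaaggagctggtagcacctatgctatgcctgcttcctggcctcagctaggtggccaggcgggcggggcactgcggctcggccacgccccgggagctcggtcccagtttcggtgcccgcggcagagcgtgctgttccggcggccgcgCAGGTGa

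On both strands the windows were searched for the CArG box that SRF binds, for AACCGGTT (grainyhead factors), CAGGTG (the E-box of Snail and Zeb repressors), GGAATG (TEAD factors) and TGANTCA (AP-1). Promoters were available for 8 of the 9 genes, in 11 windows of which those of Ocln overlap each other, as do those of Marveld2. Mal2 was not among them. None of the 11 windows held a CArG box or AACCGGTT, motifs found in 1.63% and 0.146% of all 32841 promoter windows. CAGGTG was present for 6 of 8 genes (Cldn3, Cldn4, Cldn7, Ocln, Marveld2 and F11r), compared with 22.6% of all 27018 genes. Counted with the first transcribed base as position 0, the matches in the printed windows began at -14 and 11 in Cldn4, at 31 in Cldn3, at -97 and -57 in Cldn7, at 7 in Ocln and at 43 in Marveld2. In the other window of Ocln, CAGGTG began at -213, the same site as that at 7, and at -68. In F11r it began at -122. Cldn4 also had TGANTCA at -240 and -158 and F11r at -109, a motif in 8.98% of genes. An upstream window of Cldn7 had GGAATG, a motif in 16.6% of genes, but no CAGGTG, while Cldn1 and Tjp1 had no match. The E-box was thus found both in genes whose transcripts were lower in HC11-mutB1 cells and in Marveld2 and F11r, which did not pass the test there. The 11 windows held 52% to 68% of the bases G and C, beside a median of 52.67% over all promoter windows. The shares of motifs were not adjusted for this. Matches of letters are a description and say nothing of binding.

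The means of the 4 claudin transcripts were lowest in HC11-mutB1, intermediate in HC11-ΔSAP and highest in HC11-FL cells. Ocln was lower in HC11-mutB1 cells and not detectably different between HC11-ΔSAP and HC11-FL cells, while Marveld2 and Tjp1 differed by at most 0.11 on the log2 scale between any strains. Differences were tested with limma over all 34760 probesets with Benjamini-Hochberg adjustment, and a transcript passed the test with an adjusted p of at most 0.01. To pass all filters it also had to differ by at least 2-fold. In HC11-mutB1 compared with HC11-FL cells, 4 of the 9 genes passed all filters as lower and 0 as higher, where 1.67% of 13157 genes with a mean of at least 4 were lower and 2.21% higher. At any fold, 6 genes passed the test as lower, against a background of 10.6%, and 0 as higher (15.7%). In HC11-ΔSAP compared with HC11-FL cells, 0 genes passed all filters (background 2.07% lower and 2.06% higher), and 5 passed the test as lower at any fold, against 12% of all genes, and 0 as higher (16%). The median log2 fold change of the 9 genes was -0.94 for HC11-mutB1 and -0.36 for HC11-ΔSAP cells, while that of all 13157 genes was -0.013 and 0.0010. The HC11-FL arrays serve as control in both. The 9 genes were chosen with earlier results of these data known, so these counts and medians are a description and not an independent test.

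**Figure D1:**
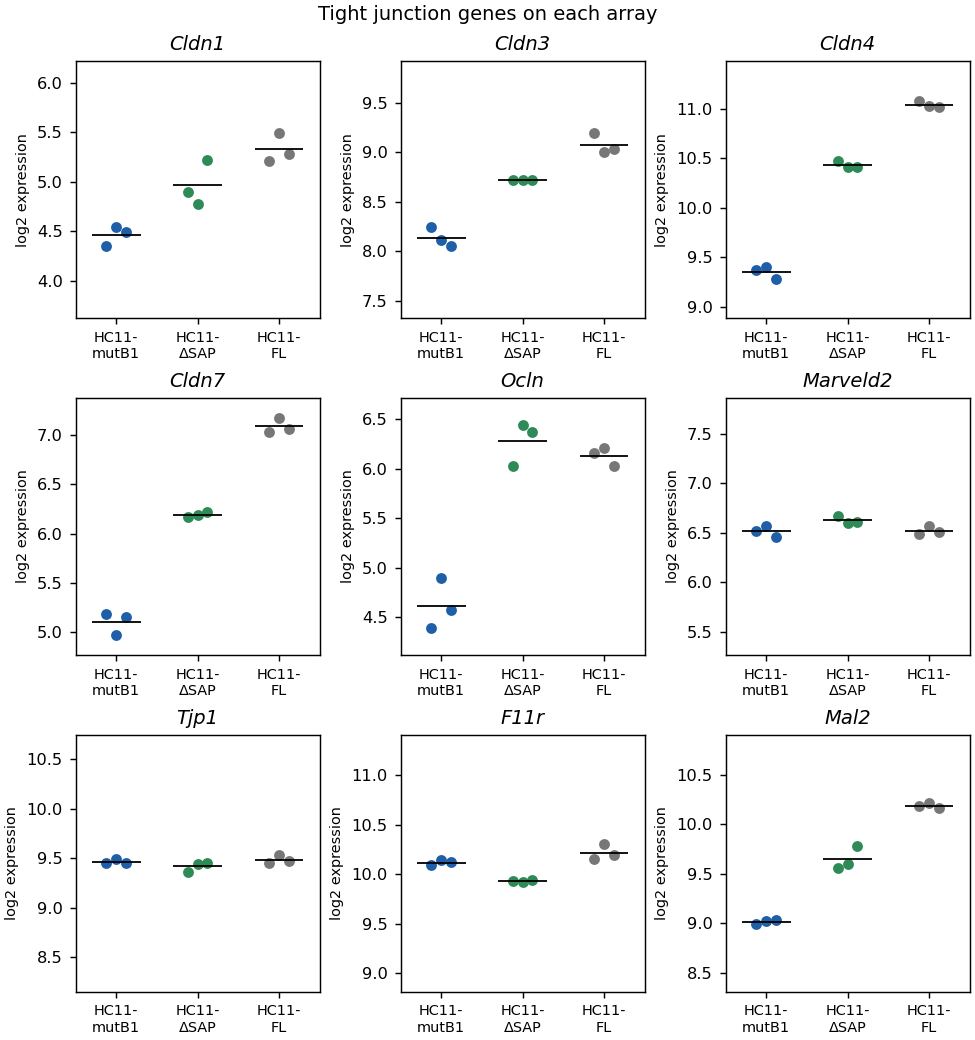
Log2 expression (y-axis) of the 9 genes on each array of HC11-mutB1, HC11-ΔSAP and HC11-FL cells (x-axis), with 1 point per array and a line at the mean of 3 arrays; every panel spans the same log2 range. In the panels of Cldn4 and Cldn7 the strains form 3 separate levels, in that of Ocln only HC11-mutB1 stands apart, and those of Marveld2 and Tjp1 are flat.

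Claudin-4, a strand protein of mammary and other glandular epithelia, lay at log2 levels of 9.37, 9.40 and 9.28 on the HC11-mutB1 arrays, at 10.48, 10.41 and 10.41 on the HC11-ΔSAP arrays and at 11.08, 11.02 and 11.01 on the HC11-FL arrays. No array of any strain overlapped with another strain. Cldn4 was 3.22-fold lower in HC11-mutB1 cells relative to HC11-FL (log2 fold change -1.69, SE 0.05, limma adjusted p = 3.24e-07) and 1.52-fold lower in HC11-ΔSAP cells relative to HC11-FL (-0.61, SE 0.05, adjusted p = 6.32e-05). The first difference passed all filters and the second missed the 2-fold minimum. Its level in HC11-ΔSAP cells was 2.12-fold that in HC11-mutB1 cells (adjusted p = 3.73e-06).

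Claudin-7, which is also found along the lateral membrane, had the largest reduction of the 9 genes. The levels were 5.18, 4.97 and 5.16 on HC11-mutB1, 6.16, 6.19 and 6.21 on HC11-ΔSAP and 7.03, 7.17 and 7.05 on HC11-FL arrays. Again the strains did not overlap. Cldn7 was 3.95-fold lower in HC11-mutB1 cells relative to HC11-FL (log2 fold change -1.98, 95% interval -2.14 to -1.82, adjusted p = 8.24e-07) and 1.86-fold lower in HC11-ΔSAP cells relative to HC11-FL (-0.89, -1.05 to -0.74, adjusted p = 4.94e-05). HC11-ΔSAP cells exceeded HC11-mutB1 cells by 2.12-fold (adjusted p = 2.01e-05).

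Claudin-3, like claudin-4 known as a receptor of Clostridium perfringens enterotoxin, followed the same order at smaller size. It lay at 8.25, 8.12 and 8.05 on HC11-mutB1 arrays and at 9.194, 9.004 and 9.036 on HC11-FL arrays, without overlap. On all 3 HC11-ΔSAP arrays the deposited value was the same, 8.72, so that its SD of 0 is not a measure of the spread between cultures. Cldn3 was 1.92-fold lower in HC11-mutB1 cells relative to HC11-FL (log2 fold change -0.94, SE 0.07, adjusted p = 4.06e-05), just below the fold minimum. In HC11-ΔSAP compared with HC11-FL cells it was 1.28-fold lower (-0.36, adjusted p = 0.00668). This call was lost, with adjusted p-values of 0.0109 to 0.0258, in 7 of the 9 fits that left out 1 array, namely without HC11-FL replicate 1, 2 or 3, HC11-ΔSAP replicate 1, 2 or 3 or HC11-mutB1 replicate 2, and with only these strains in the fit (adjusted p = 0.0127).

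Claudin-1, whose loss in mice opens the skin barrier, was measured near background. Its levels were 4.35, 4.54 and 4.49 on HC11-mutB1, 4.90, 4.78 and 5.22 on HC11-ΔSAP and 5.21, 5.49 and 5.28 on HC11-FL arrays. The HC11-mutB1 arrays lay below all others, while 1 HC11-ΔSAP array overlapped with the HC11-FL range. Cldn1 was 1.82-fold lower in HC11-mutB1 cells relative to HC11-FL (log2 fold change -0.87, SE 0.12, adjusted p = 0.00166). The difference of -0.36 between HC11-ΔSAP and HC11-FL cells did not pass (95% interval -0.65 to -0.08, adjusted p = 0.0882), nor did that of 0.50 between HC11-ΔSAP and HC11-mutB1 cells (0.22 to 0.79, adjusted p = 0.0291). The SE of 0.12 was larger than those of Cldn3, Cldn4 and Cldn7 (0.05 to 0.07).

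Occludin, the first integral tight junction protein identified, separated the mutant strains most. Its levels were 4.39, 4.90 and 4.57 on HC11-mutB1 arrays, 6.03, 6.45 and 6.37 on HC11-ΔSAP arrays and 6.16, 6.21 and 6.03 on HC11-FL arrays. HC11-mutB1 arrays lay below all others and near background, and the ranges of HC11-ΔSAP and HC11-FL overlapped. Ocln was 2.86-fold lower in HC11-mutB1 cells relative to HC11-FL (log2 fold change -1.52, SE 0.15, adjusted p = 2.12e-04). Between HC11-ΔSAP and HC11-FL cells the difference was 0.15, with a 95% interval of -0.19 to 0.49 (adjusted p = 0.616). Compared directly, Ocln was 3.17-fold higher in HC11-ΔSAP cells relative to HC11-mutB1 (1.66, SE 0.15, adjusted p = 1.53e-04).

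Tricellulin shares the 4-pass MARVEL fold with occludin, and its gene is the next protein-coding gene to Ocln on chromosome 13. Marveld2 lay at 6.52, 6.57 and 6.46 on HC11-mutB1, 6.67, 6.60 and 6.61 on HC11-ΔSAP and 6.48, 6.57 and 6.51 on HC11-FL arrays. The HC11-mutB1 and HC11-FL ranges overlapped, and the HC11-ΔSAP arrays were slightly higher. The difference between HC11-mutB1 and HC11-FL cells was -0.0030 with a 95% interval of -0.11 to 0.11 (adjusted p = 0.981), and that between HC11-ΔSAP and HC11-FL cells 0.11 with an interval of -0.0040 to 0.22 (adjusted p = 0.199).

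The scaffold Tjp1 lay at 9.45, 9.49 and 9.45 on HC11-mutB1, at 9.36, 9.44 and 9.45 on HC11-ΔSAP and at 9.45, 9.53 and 9.47 on HC11-FL arrays. The ranges of the strains overlapped, and none of the 3 comparisons passed. The 95% intervals ran from -0.12 to 0.08 for HC11-mutB1 and from -0.17 to 0.04 for HC11-ΔSAP compared with HC11-FL cells. JAM-A did not follow the order of the claudin means. F11r lay at 10.09, 10.14 and 10.12 on HC11-mutB1, 9.93, 9.92 and 9.94 on HC11-ΔSAP and 10.15, 10.30 and 10.20 on HC11-FL arrays, so that HC11-ΔSAP was the lowest strain. The reduction was 1.22-fold in HC11-ΔSAP compared with HC11-FL cells (log2 fold change -0.29, SE 0.05, adjusted p = 0.00343). The difference of -0.10 in HC11-mutB1 cells did not pass (adjusted p = 0.225). Between HC11-ΔSAP and HC11-mutB1 cells the difference of -0.19 did not pass either (limma adjusted p = 0.0349). The HC11-ΔSAP call was lost without HC11-FL replicate 3 or any HC11-ΔSAP replicate (adjusted p = 0.0119 to 0.0163), with only these strains in the fit (0.0160) and after centring each array on its median (0.0168).

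Mal2, a protein of apical transcytosis, ran with the claudins. It lay at 8.995, 9.017 and 9.036 on HC11-mutB1, 9.55, 9.60 and 9.78 on HC11-ΔSAP and 10.18, 10.22 and 10.16 on HC11-FL arrays, without overlap between strains. The HC11-mutB1 level was 2.25-fold lower (log2 fold change -1.17, SE 0.06, adjusted p = 7.03e-06) and the HC11-ΔSAP level 1.46-fold lower than that of HC11-FL cells (-0.54, SE 0.06, adjusted p = 4.39e-04). HC11-ΔSAP cells exceeded HC11-mutB1 cells by 0.63 on the log2 scale (adjusted p = 2.53e-04).

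**Figure D2:**
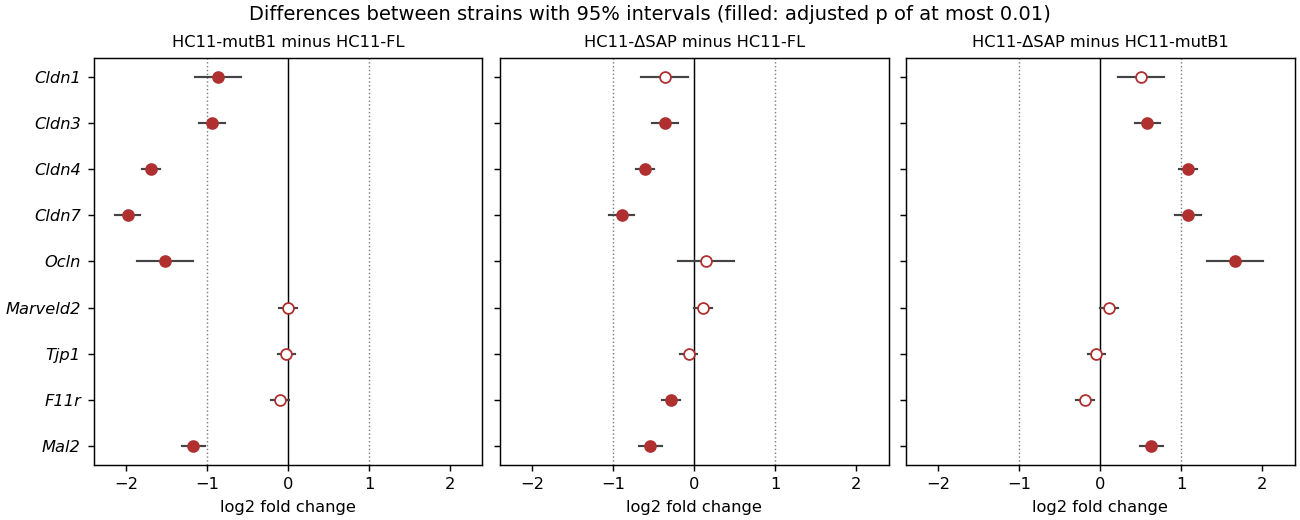
Log2 fold changes (x-axis) of the 9 genes (y-axis) in HC11-mutB1 and HC11-ΔSAP compared with HC11-FL cells and in HC11-ΔSAP compared with HC11-mutB1 cells, with 95% intervals from limma; filled points have an adjusted p of at most 0.01 and dotted lines mark a 2-fold difference. Cldn4, Cldn7, Ocln and Mal2 lie beyond the 2-fold line in the first panel, none does in the second, and Cldn4, Cldn7 and Ocln do in the third.

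In the direct comparison of HC11-ΔSAP with HC11-mutB1 cells, 3 of the 9 genes (Cldn4, Cldn7 and Ocln) passed all filters as higher and 0 as lower, where 1.61% of genes were higher and 2.28% lower. At any fold 5 genes passed as higher (background 9.86%) and 0 as lower (10.6%), Cldn3 and Mal2 being the others. The arrays of HC11-mutB1 and HC11-FL did not overlap for 7 of the 9 genes, those of HC11-ΔSAP and HC11-FL for 6 and those of HC11-ΔSAP and HC11-mutB1 for 8. This was the case for 55.1%, 53.4% and 51% of all genes, so these counts say little by themselves. For each of them an exact permutation test (two-sided) of 3 against 3 arrays gave p = 0.1, the smallest it allows.

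Over the 9 arrays the profiles of the 4 claudins and Mal2 correlated at r = 0.89 to 0.99 with each other (10 pairs) and at 0.82 to 0.88 with Ocln (5 pairs). Tjp1, F11r and Marveld2 correlated with these 6 genes at -0.21 to 0.47 (18 pairs). All pairs share the same arrays and the same 3 strains. Outside the 9 genes, the profile closest to Cldn7 by Euclidean distance of mean-centred log2 values was P4ha2, a collagen prolyl hydroxylase subunit (distance 0.22, r = 0.996 over 9 arrays), and the closest to Cldn4 was Dgat2, an enzyme of triglyceride synthesis (0.31, r = 0.998). The next closest were Dgat2 for Cldn7 (0.41) and the guanine deaminase Gda for Cldn4 (0.40). Mal2 was closest to the forkhead factor Foxd1 (0.20) and the acute phase gene Orm2 (0.21). Ocln, with its own pattern, was closest to Il10rb (0.40), a receptor chain for cytokines of the interleukin 10 family, and to the semaphorin Sema5a (0.49). Il10rb lay at a mean of 7.70 in HC11-mutB1, 9.28 in HC11-ΔSAP and 9.13 in HC11-FL cells.

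In the order of protein-coding genes, Cldn3 and Cldn4 are neighbours on chromosome 5 and both were lower in HC11-mutB1 cells, whereas of the neighbours Ocln and Marveld2 on chromosome 13 only Ocln passed the test. The 9 genes have 14 further neighbours, of which 12 were measured. In HC11-mutB1 compared with HC11-FL cells, 0 of the 12 passed the test as lower and 3 as higher, namely P3h2 beside Cldn1 (log2 fold change 0.71), Mettl27 beside Cldn4 (0.27) and Elp5 beside Cldn7 (0.28). Over all genes 10.6% passed as lower and 15.7% as higher, so these counts say little by themselves. Among the 12, Cldn16, Colec10 and Ccn3 had means of only 3.40 to 3.86. None of the 12 passed all filters in any of the 3 comparisons.

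By their medians, the other gene lists of the junctional complex did not show the reduction of the claudins. Their counts are to be read beside the shares over all genes past the test relative to HC11-FL. These were 10.6% lower and 15.7% higher in HC11-mutB1, and 12% and 16% in HC11-ΔSAP cells. Of 11 further claudins with a mean of at least 4, 3 passed the test as lower and 0 as higher in HC11-mutB1 compared with HC11-FL cells (median log2 fold change -0.11), and 1 was lower and 0 higher in HC11-ΔSAP compared with HC11-FL cells (-0.06). Cldn9 differed most. It lay at 4.12, 4.65 and 4.21 on HC11-mutB1, 4.91, 4.51 and 4.54 on HC11-ΔSAP and 7.47, 7.69 and 7.58 on HC11-FL arrays. Both mutant strains were thus near background, at 9.50-fold (adjusted p = 4.73e-06) and 7.59-fold lower signal (adjusted p = 9.13e-06), folds of uncertain size. The other claudins past the test in HC11-mutB1 cells, named after their values were seen, were Cldn12 (-0.42) and Cldn23 (-0.92), both of them higher in HC11-ΔSAP cells relative to HC11-mutB1 (0.40 and 0.59).

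Of 7 further membrane proteins of the tight junction, 1 passed as lower and 2 as higher in HC11-mutB1 compared with HC11-FL cells, while in HC11-ΔSAP cells 0 passed as lower and 2 as higher. Marveld1, a MARVEL protein that also occurs away from junctions, exceeded its HC11-FL level in HC11-ΔSAP cells by 2.38-fold (adjusted p = 1.31e-05) and in HC11-mutB1 cells by 1.61-fold (adjusted p = 3.14e-04). Among 12 scaffold proteins 3 passed as lower and 2 as higher in HC11-mutB1 cells, against 2 as lower and 2 as higher in HC11-ΔSAP cells. None of the scaffolds reached a 2-fold difference together with the test. Of these, cingulin (Cgn) was lower in HC11-mutB1 cells relative to HC11-FL (-0.92, adjusted p = 1.26e-04) and higher in HC11-ΔSAP cells relative to HC11-mutB1 (0.93, adjusted p = 1.42e-04), an example picked after its values were seen. The 5 scaffolds past the test in HC11-mutB1 cells became 3 without HC11-FL replicate 3 or HC11-mutB1 replicate 2 or 3. Of 15 apical polarity proteins, 1 was lower and 5 passed as higher in HC11-mutB1 and 1 as lower and 7 as higher in HC11-ΔSAP compared with HC11-FL cells, and the 6 of HC11-mutB1 cells became 3 without HC11-mutB1 replicate 1.

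**Figure D3:**
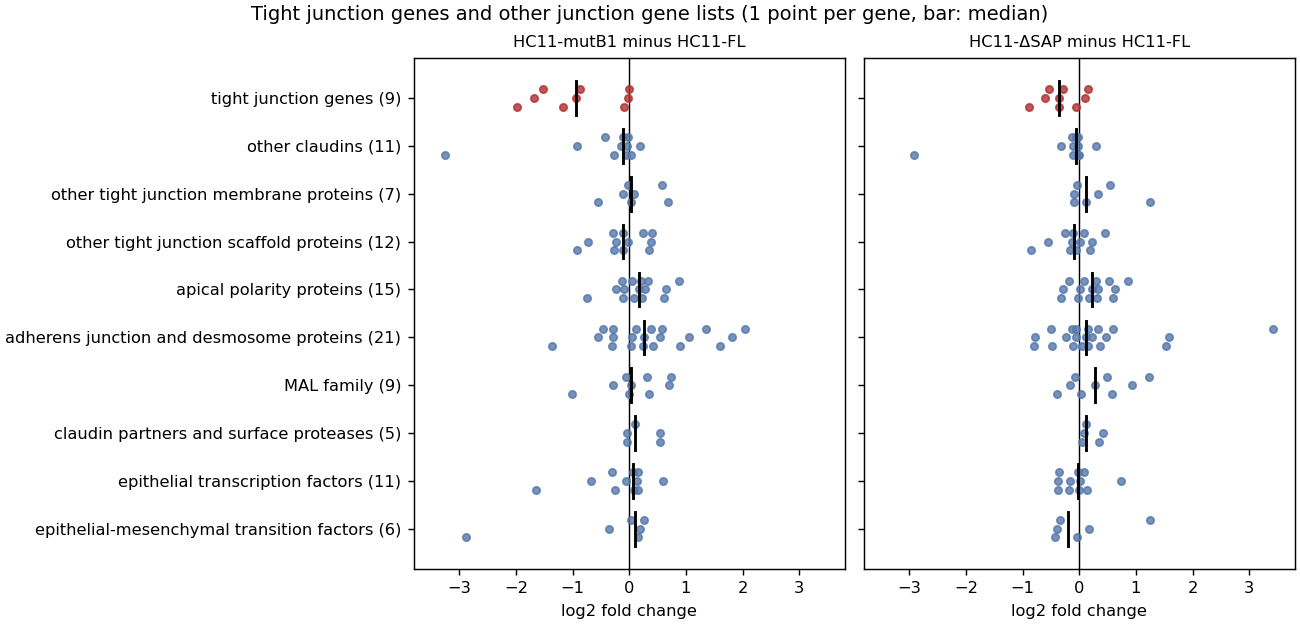
Log2 fold changes (x-axis) of the 9 tight junction genes (red) and of other gene lists (blue; number of genes with a mean log2 level of at least 4 in brackets) in HC11-mutB1 and HC11-ΔSAP compared with HC11-FL cells, with 1 point per gene and a bar at the median. The median of the 9 genes is -0.94 in HC11-mutB1 cells, while those of the other lists lie between -0.11 and 0.26. All lists were chosen with earlier results of these data known, so the contrast of medians is a description only.

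Adherens junctions and desmosomes, which hold cells together below the tight junction, had members that passed in both directions. Relative to HC11-FL cells, 6 of 21 genes passed as lower and 11 as higher in the HC11-mutB1 strain (median 0.26), while 4 passed as lower and 7 as higher in the HC11-ΔSAP strain (median 0.12). Over all genes 10.6% passed as lower and 15.7% as higher in HC11-mutB1 cells, and 12% and 16% in HC11-ΔSAP cells. E-cadherin (Cdh1), the main epithelial cadherin, had means of 10.76 in HC11-mutB1, 11.01 in HC11-ΔSAP and 10.64 in HC11-FL cells. It was 1.29-fold higher in HC11-ΔSAP cells relative to HC11-FL (adjusted p = 3.11e-04) and did not pass in HC11-mutB1 cells (0.12, adjusted p = 0.0843). N-cadherin (Cdh2), typical of mesenchymal and neural cells, exceeded its HC11-FL level in HC11-mutB1 cells by 3.49-fold (adjusted p = 1.39e-06) and in HC11-ΔSAP cells by 10.7-fold (adjusted p = 8.04e-08). P-cadherin (Cdh3), typical of basal cells, was 4.12-fold and 3.01-fold higher in the same order.

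Nectin2, an immunoglobulin-like adhesion molecule, had a pattern like that of the claudins, with 5.81, 5.75 and 5.90 on HC11-mutB1, 6.35, 6.41 and 6.39 on HC11-ΔSAP and 7.18, 7.16 and 7.20 on HC11-FL arrays. It was 2.56-fold lower in HC11-mutB1 and 1.73-fold lower in HC11-ΔSAP cells relative to HC11-FL (adjusted p = 1.04e-06 and 1.72e-05). Nectin3 was instead 3.04-fold and 2.88-fold higher. The desmosomal genes Dsp and Pkp1 were 2.08-fold and 2.55-fold higher in HC11-mutB1 cells relative to HC11-FL.

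In the family of Mal2, 1 of 9 genes passed as lower and 3 as higher in HC11-mutB1 cells (10.6% and 15.7% of all genes). In HC11-ΔSAP compared with HC11-FL cells 0 passed as lower and 4 as higher (12% and 16% of all genes). Cmtm8 was 2.01-fold lower in HC11-mutB1 cells (adjusted p = 2.58e-04), and Cmtm3 was 2.36-fold higher in HC11-ΔSAP cells relative to HC11-FL (adjusted p = 2.29e-05). Epcam, which binds and stabilises claudin-7 at the membrane, had means of 10.44 in HC11-mutB1, 10.32 in HC11-ΔSAP and 9.90 in HC11-FL cells. It was thus 1.45-fold and 1.34-fold higher than in HC11-FL cells, opposite to Cldn7 (adjusted p = 8.92e-05 and 3.12e-04).

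Among 11 epithelial transcription factors, 2 were lower and 1 was higher in HC11-mutB1 cells (10.6% and 15.7% of all genes). In HC11-ΔSAP cells 3 were lower and 1 was higher (12% and 16% of all genes). Ehf, an epithelial ETS factor, lay at 6.73, 6.78 and 6.91 on HC11-mutB1, 8.05, 8.10 and 8.10 on HC11-ΔSAP and 8.43, 8.45 and 8.48 on HC11-FL arrays. It was 3.13-fold lower in HC11-mutB1 cells relative to HC11-FL (adjusted p = 7.15e-07) and in HC11-ΔSAP cells 1.29-fold lower (adjusted p = 0.00190). Grhl2, a grainyhead factor known to activate claudin and cadherin genes, differed by 0.08 and 0.0094 and did not pass in HC11-mutB1 or HC11-ΔSAP cells (adjusted p = 0.262 and 0.930). The 4 factors past the test in HC11-ΔSAP cells became 2 without HC11-FL replicate 1 or HC11-ΔSAP replicate 1 and 1 without HC11-FL replicate 3.

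Of 6 factors of the epithelial-mesenchymal transition, known as repressors of junction genes, 2 passed as lower and 0 as higher in HC11-mutB1 cells. The shares over all genes were 10.6% and 15.7%. In HC11-ΔSAP compared with HC11-FL cells 3 passed as lower and 1 as higher (12% and 16% of all genes). Zeb2 lay at 4.30, 4.31 and 4.28 on HC11-mutB1, 6.72, 6.80 and 6.78 on HC11-ΔSAP and 7.12, 7.22 and 7.23 on HC11-FL arrays. It was 7.41-fold lower in HC11-mutB1 (adjusted p = 4.70e-08) and 1.34-fold lower in HC11-ΔSAP cells relative to HC11-FL (adjusted p = 3.46e-04), the HC11-mutB1 level being near background and its fold of uncertain size. HC11-mutB1, the strain with the lowest means of the 4 claudins, also had the lowest mean of Zeb2. Named after their values were seen, Snai1 (7.44) and Twist1 (7.56) instead had their highest means in that strain. Their differences between HC11-mutB1 and HC11-FL cells did not pass. Relative to HC11-mutB1, both passed as lower in HC11-ΔSAP cells (-0.66 and -0.49, limma adjusted p = 5.45e-04 and 3.61e-04). A part of these factors in the claudin levels was not tested. In HC11-mutB1 cells the log2 fold change of Snai2 was -0.36 (adjusted p = 0.00316), and Zeb1 did not pass (0.18, adjusted p = 0.260). Twist2 was 2.38-fold higher in HC11-ΔSAP cells relative to HC11-FL (adjusted p = 8.68e-05). The 2 factors past the test in HC11-mutB1 cells became 1 without HC11-FL replicate 1 or 3 or HC11-mutB1 replicate 2 or 3, and the 4 in HC11-ΔSAP cells became 2 without HC11-ΔSAP replicate 2 or 3.

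**Figure D4:**
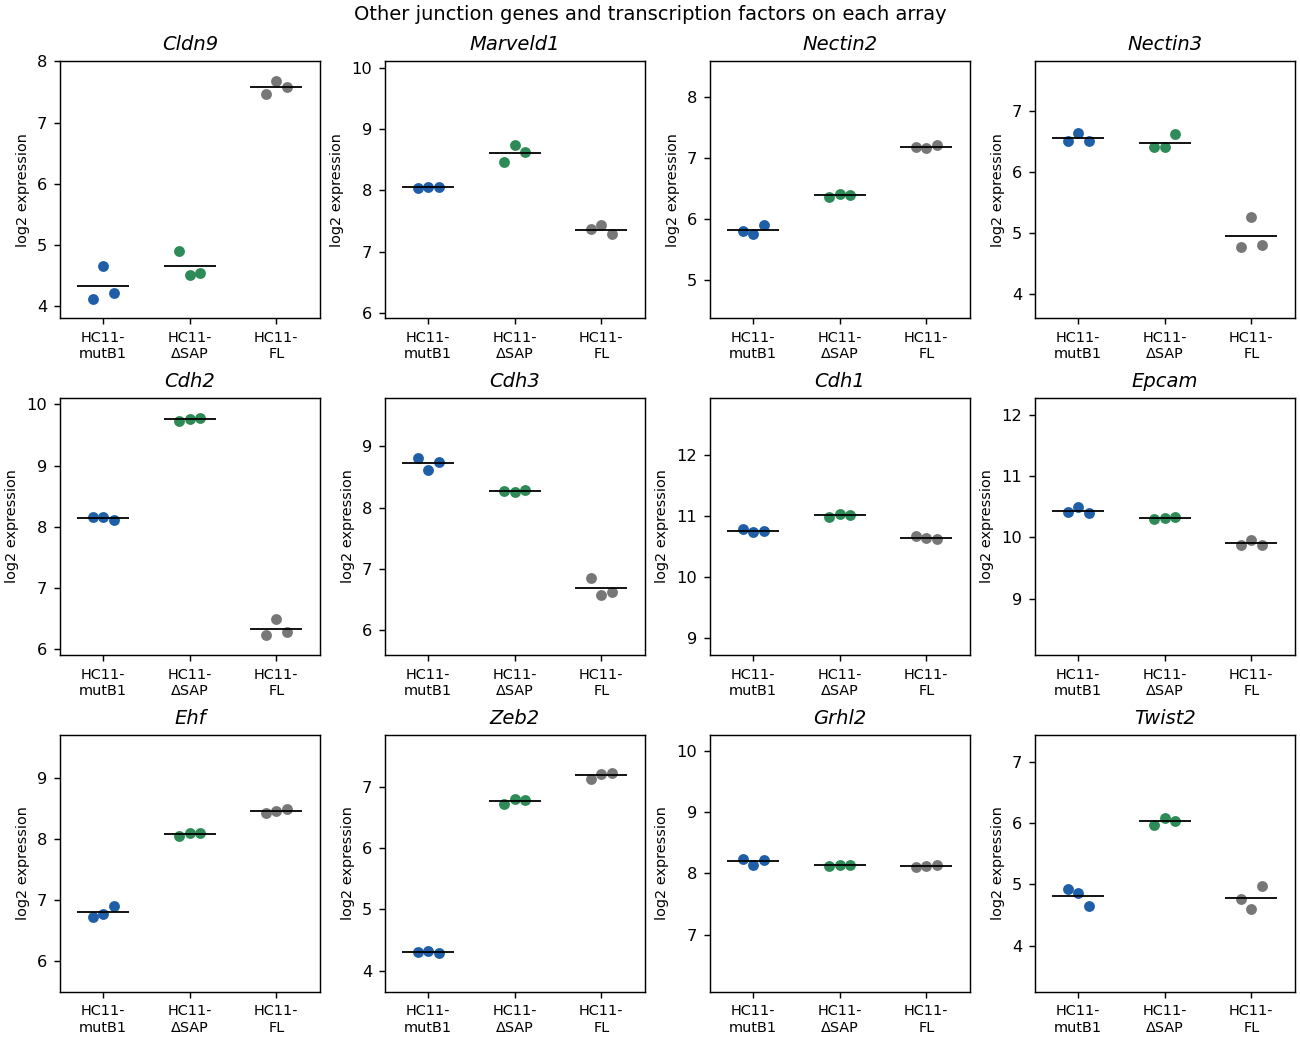
Log2 expression (y-axis) of 12 other junction genes and transcription factors on each array of HC11-mutB1, HC11-ΔSAP and HC11-FL cells (x-axis), with 1 point per array and a line at the mean; every panel spans the same log2 range. Nectin2, Ehf and Zeb2 are lowest in HC11-mutB1 cells, Cldn9 is low in both mutant strains, Cdh2 and Cdh3 are higher in both, and Grhl2 is flat.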

How the data were processed

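RNA of HC11-mutB1, HC11-ΔSAP and HC11-FL cells was measured on the Mouse Gene 1.0 ST platform of Affymetrix. The authors deposited log2 values of 34760 probesets, made by RMA (background correction, quantile normalization, median polish) with the affy package and R 2.10.0 per the labels. Scans were not used here, so a scan batch was not examined. Array medians were 4.53 to 4.60, and 20133 to 20548 probesets per array reached 4. RMA leaves repeated values in some probesets, and of the 9 genes 7 had distinct values within every strain, Cldn3 and Tjp1 being the exceptions. By the array annotation 21640 probesets have 1 gene symbol, 1321 several and 11799 none listed. The probeset with the highest mean was used per gene.

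The test was limma 3.58.1 (R 4.3.3), in which each strain had its mean and all 9 arrays gave a common spread (6 residual and 1.93 prior degrees of freedom), adjusted over all probesets. Filters were those of the study's methods: adjusted p of at most 0.01, at least 2-fold and a mean log2 of at least 4. The scripts were tested on simulated data.

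The 9 genes and the other gene lists were chosen with earlier results of these data known, and the lists were written from textbook knowledge. Besides the 9 genes, the text names the genes of each list that passed all filters (up to 6), Cdh1, Epcam, Grhl2, Zeb1 and Snai2, the 2 closest profiles of each of the 9 genes that passed all filters, chromosomal neighbours, and others where stated. Promoters and gene order are from RefSeq, GRCm38.p6; since the build behind the array table is not given in the sources used here, gene order is used without gene coordinates. Alternatives were other sets of samples, the replicate block, trend and robust fits, filters, scalings, averaged probesets and each array left out.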

Additional observations from a re-analysis of the deposited data

How the results depend on the processing

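Of the tight junction genes, the 4 lower in HC11-mutB1 cells relative to HC11-FL, 0 in HC11-ΔSAP compared with HC11-FL cells and 3 higher in HC11-ΔSAP cells relative to HC11-mutB1 were counted again in every fit with 1 array left out, with 4 to 4, 0 to 0 and 3 to 3 genes. The counts over all probesets were then 571 to 580, 600 to 621 and 562 to 581. With no fold minimum 5 genes were called in HC11-ΔSAP compared with HC11-FL and 5 in HC11-ΔSAP compared with HC11-mutB1 cells, and 4100, 4457 and 3185 probesets in the 3 comparisons. A test against a fold of 1.2 called 2 genes in HC11-ΔSAP compared with HC11-FL cells and 1402, 1602 and 1181 probesets. Both settings drop the 2-fold minimum by construction. Under that test Cldn1 in HC11-mutB1 cells (adjusted p = 0.0146) and Cldn3, F11r and Mal2 in HC11-ΔSAP cells (0.799, 1 and 0.0187), all compared with HC11-FL cells, no longer passed, nor did Cldn3 between HC11-ΔSAP and HC11-mutB1 cells (0.0199). The calls of Cldn4, Cldn7 and Ocln held in all settings, and no difference that passed changed its sign. In the other gene lists the numbers past the test were less stable. For the 15 polarity genes in HC11-ΔSAP compared with HC11-FL cells they ranged from 1 to 9, with 8 in the values reported.

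The deviations of same-numbered replicates correlated at r = -0.11 to 0.26. The 3 of 9 pairs over 0.1 were those of replicate 1 (0.108 to 0.257), while those of replicates 2 and 3 were all below 0.1, so the numbers were not taken to pair the arrays. With the replicate block 577, 604 and 570 probesets and 4, 0 and 3 tight junction genes were called, and of the factors of the epithelial-mesenchymal transition 1 in place of 2 passed in HC11-mutB1 cells. Averaging probesets left the 9 genes as they were, since each has 1 probeset. Low signal limits the folds of Cldn1 in all strains and of Cldn7, Ocln, Zeb2 and Cmtm8 in HC11-mutB1 cells. It also limits those of Cldn9 in HC11-mutB1 and HC11-ΔSAP cells and of Nectin3 and Twist2 in HC11-FL cells. The same holds for Dcn in HC11-mutB1 and HC11-FL cells. In all these cases means lay between 4.30 and 5.33.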
